A study of Mus musculus with 12 samples.

Results

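Tibia shaft RNA of the 4 Jrt;Sost-ko mice was compared with that of all 8 Sost-expressing mice, taken as 1 group made of 4 Jrt;Sost-het and 4 WT mice. All 12 mice of the series entered the comparison, and all genes with enough counts were fitted. Genes were then listed for which the 4 knockouts lay outside the range of both other groups. The mice were male and 8 weeks old, and marrow had been flushed from the shafts before RNA extraction. Jrt;Sost-ko mice were *Col1a1* Jrt/+ and *Sost*-/-, Jrt;Sost-het mice were *Col1a1* Jrt/+ and *Sost*+/-, and WT mice were wild type at both genes. In the labels the Jrt;Sost-het mice appear with a *Col1a1* genotype alone, and *Sost*+/- comes from the paper's methods. The Jrt allele is a chemically induced splice-site variant from an FVB line, the *Sost*- allele came from a C57BL6 line, and all mice were of mixed FVB/C57BL6 background. All knockouts carried Jrt and only 4 of the 8 comparison mice did, and WT mice came from a parallel colony. The pooled comparison therefore also holds a part of the Jrt and colony differences, which cannot be told apart in it. *Sost*-deficient mice without Jrt were not analysed here.

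*Sost* encodes sclerostin, a protein that osteocytes secrete and that binds the Wnt co-receptors LRP5 and LRP6. Bound sclerostin keeps Wnt ligands from signalling through these receptors, and osteoblasts make less bone as a result. The Jrt allele gives a shortened collagen type I alpha 1 chain, and mice that carry it have brittle bones.

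Reads counted on genes ranged from 24366061 to 44418863 per mouse. Of 47069 genes in the deposited matrix, 17245 passed edgeR's filter on low counts. Levels are given as CPM, counts scaled to library size by edgeR and adjusted with TMM factors, which lay between 0.978 and 1.02. Tissue markers differed widely within groups. Summed CPM of 18 skeletal muscle genes ran from 39.0 to 14660 in Jrt;Sost-ko, from 2884 to 33850 in Jrt;Sost-het and from 273 to 36140 in WT mice. Summed CPM of 20 epidermis genes was 205 in WT mouse 3 and 845 in WT mouse 4, and at most 21.0 in any other mouse. In such bulk RNA, fewer cells of a type and less RNA per cell cannot be told apart.

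Promoters are shown for 4 genes on which the results turn. These are *Sost*, *Bglap* as the osteoblast gene with the smallest unadjusted p, *Iars* as the gene above the range with the smallest p, and *Sfxn2* as the one with the largest difference among those given with values per mouse. The 250 bases before the RefSeq start site are printed in GRCm38.p6, each on its gene's strand. They lie at chr11:101967016-101967265 on the minus strand for *Sost*, at chr3:88384467-88384716 on the minus strand for *Bglap*, at chr13:49681880-49682129 on the plus strand for *Iars* and at chr19:46573115-46573364 on the plus strand for *Sfxn2*. Capitals mark the letters CACGTG, a form of the E-box, or the promoter element TATAAA, both searched on both strands. Other forms of the E-box were not searched and are not marked.
Sost: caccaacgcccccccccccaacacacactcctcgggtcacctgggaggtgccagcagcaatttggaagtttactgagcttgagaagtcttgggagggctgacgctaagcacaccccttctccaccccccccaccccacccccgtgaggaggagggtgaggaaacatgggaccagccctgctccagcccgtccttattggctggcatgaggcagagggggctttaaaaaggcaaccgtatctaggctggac
Bglap: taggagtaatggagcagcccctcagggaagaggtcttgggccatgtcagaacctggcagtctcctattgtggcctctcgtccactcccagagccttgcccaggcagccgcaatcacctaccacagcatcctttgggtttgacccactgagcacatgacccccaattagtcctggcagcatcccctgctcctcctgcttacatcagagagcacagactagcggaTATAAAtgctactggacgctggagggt
Iars: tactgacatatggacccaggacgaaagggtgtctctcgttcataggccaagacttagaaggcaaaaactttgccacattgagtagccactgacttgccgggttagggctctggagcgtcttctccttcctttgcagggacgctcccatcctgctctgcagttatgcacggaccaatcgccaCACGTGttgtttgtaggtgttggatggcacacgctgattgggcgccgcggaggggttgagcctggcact
Sfxn2: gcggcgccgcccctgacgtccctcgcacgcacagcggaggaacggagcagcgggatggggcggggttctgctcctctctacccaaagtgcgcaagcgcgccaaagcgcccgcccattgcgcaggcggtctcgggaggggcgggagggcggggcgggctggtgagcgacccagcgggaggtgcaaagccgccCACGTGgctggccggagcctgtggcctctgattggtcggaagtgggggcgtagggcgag
Neither motif was in the *Sost* window. TATAAA began 27 bases before the start in *Bglap*, and CACGTG began 69 and 59 bases before it in *Iars* and *Sfxn2*. Promoters were matched for 43 of the 50 genes above the range and for 22 of the 39 below it. In the 250 bases before the start, CACGTG was in 4 of those 43 genes (9.30%) and in 5 of the 22 (22.7%), against 9.38% of all genes tested that had a promoter. Some genes have several promoters. Counted by promoter, CACGTG was in 4 of 56 (7.14%) above and 5 of 36 (13.9%) below, against 7.82%. With the bases just after the start included, as RefSeq's window has them, it was in 7 of the 43 (16.3%) and 5 of the 22, against 11.1%. TATAAA was before the start in 3 of the 43 (6.98%) and 2 of the 22 (9.09%), against 8.60%. The core letters CTTTGA, to which TCF and LEF factors bind, were there in 5 of the 43 (11.6%) and 2 of the 22 (9.09%), against 13.2%. These are matches of letters, and no binding was measured.

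*Sost* was first examined as a check of the labels. It lies on chromosome 11 from 101962458 to 101967015 on the minus strand (ENSMUSG00000001494, GRCm38). The 4 Jrt;Sost-ko mice had 0.569, 1.29, 0.506 and 0.328 CPM, from 16, 43, 19 and 10 counts. The 4 Jrt;Sost-het mice had 28.1, 34.5, 70.3 and 27.2 CPM, and the 4 WT mice had 50.3, 72.4, 62.0 and 28.6 CPM. Every knockout thus lay far below every Sost-expressing mouse, and none was at 0. Jrt;Sost-het and WT mice overlapped. The mean in Jrt;Sost-ko mice (0.672 ± 0.421 CPM, SD, n = 4) was 1.44% of the mean in the other 8 (46.7 ± 19.5 CPM, SD, n = 8). *Sost* fell by 6.10 on the log2 scale (standard error (SE) 0.49, adjusted p = 0.000305 from edgeR's quasi-likelihood test with Benjamini–Hochberg adjustment). The exact permutation test over all arrangements of the mice gave a two-sided p of 0.00404, the smallest it allows. Any gene with all 4 knockouts on one side of the other 8 would get this value, so it adds nothing to that separation.

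**Figure D1:**
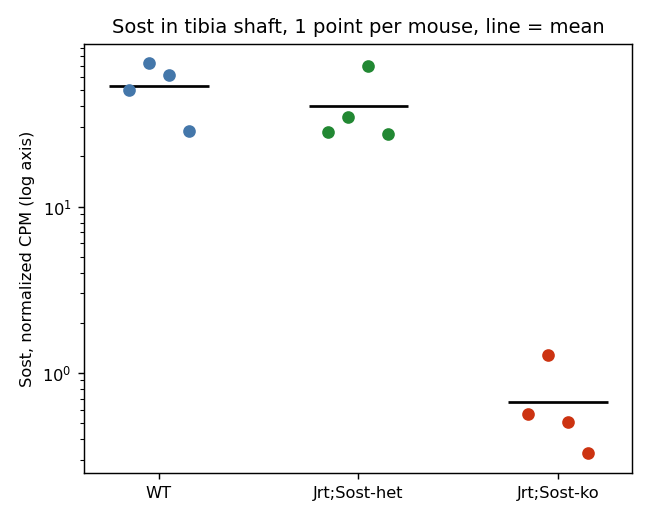
*Sost* in normalized CPM (log axis) in each mouse of the 3 groups, with 1 point per mouse and a line at the group mean. The 4 Jrt;Sost-ko mice sit between 0.328 and 1.29 CPM and the other 8 between 27.2 and 72.4 CPM.

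Of the 17245 genes tested, *Sost* was the only one with an adjusted p under 0.05 (0.0058% of genes) in edgeR's quasi-likelihood test. Without adjustment 995 genes (5.77%) had p under 0.05, of which 557 (3.23%) were higher and 438 (2.54%) lower in Jrt;Sost-ko mice. DESeq2 called 16 genes and limma-voom with quality weights called 0, with 1932 genes at an unadjusted p under 0.05. Jrt;Sost-het and WT mice, compared with each other, differed in 0 of 16775 genes with edgeR and in 0 with DESeq2, with 359 genes (2.14%) at an unadjusted p under 0.05. The log2 fold changes of the 17245 genes had a median of -0.01, and 48.1% were above 0. Differences in genes other than *Sost* did not pass edgeR's threshold and are given below as levels per mouse.

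**Figure D2:**
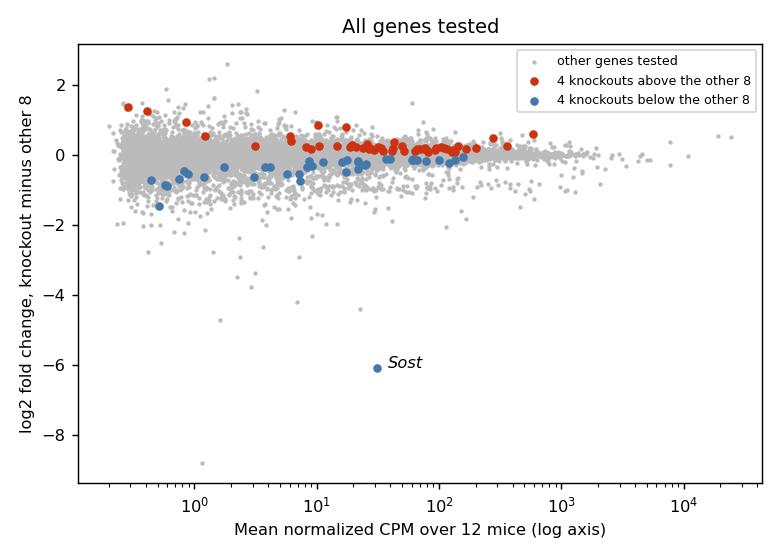
Log2 fold change of Jrt;Sost-ko mice against the other 8, plotted against mean normalized CPM (log axis) for the 17245 genes tested. Red and blue points are the 50 genes with all knockouts above and the 39 with all knockouts below the other 8 mice, and *Sost* stands apart at -6.10.

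All 4 knockouts lay above all 8 other mice in 50 genes (0.29% of those tested) and below them in 39 (0.226%), which together is 0.516%. If the labels carried no information, a gene would lie outside the range in either direction with a chance of 0.00404. Many of the 89 genes may therefore be there by chance. With upper-quartile scaling the split was 38 above and 48 below, so which direction held more genes turned with the scaling. The other 2 scalings gave 54 and 36, and 50 and 40. Under all 3 other scalings 66 of the 89 genes were outside the range. Of the genes described with values per mouse, *Tars* and *Rasgrf2* were outside it under 2 of those 3, and *Rrp1b* and *Gm20544* under 1. No gene had its knockouts between the ranges of Jrt;Sost-het and WT mice. Most of the 89 differences were small. Their median size was 0.21 on the log2 scale for the genes above and 0.31 for those below, and the knockouts cleared the nearest other mouse by under 0.05 in 38 of 50 and 28 of 39 genes. Only 2 genes above and 2 below had a log2 fold change over 1 in size. All 50 genes above and 32 of the 39 below were protein coding, against 85.8% of genes tested. Exons of another gene overlapped 14 of the 50 and 12 of the 39 genes, against 36.0% of genes tested. The strand setting of the counting is not given in the sources used here, so reads of such neighbours may be mixed, among the genes described here in *Lrrc59*, *Nudcd1*, *Tsr1*, *Yars*, *Heatr3*, *Rrp1b*, *Ddx54*, *Polr3gl* and *Acsl6*.

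At the edge of the rule, just below the range, stood *Cyp27a1*, the sterol 27-hydroxylase. It had 15.43 CPM in its highest knockout and 15.44 CPM in the lowest other mouse. It was not outside the range under any of the 3 other scalings. Just inside were *Ube3a*, an E3 ubiquitin ligase, whose lowest knockout (91.27 CPM) tied with WT mouse 1 (91.27 CPM) to these digits, and *Rbm44*, which was at 0 counts in all 4 knockouts and in 3 of the other 8 mice.

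Genes that charge tRNAs with amino acids were among those above the range. *Iars*, the isoleucyl-tRNA synthetase (chromosome 13, 49682100 to 49734267), had the smallest unadjusted p of the 50. Its levels were 111, 120, 115 and 117 CPM in Jrt;Sost-ko mice, 96.5, 101, 95.9 and 99.5 CPM in Jrt;Sost-het mice and 99.7, 97.2, 106 and 96.8 CPM in WT mice. The knockouts stood together above both other groups, which overlapped each other. This is a log2 fold change of 0.23 (SE 0.039, adjusted p = 0.557 from edgeR's quasi-likelihood test with Benjamini–Hochberg adjustment, 7.18e-06 from DESeq2). *Yars*, for tyrosine, had 71.3, 76.7, 66.2 and 74.6 CPM in the knockouts and 62.3 to 65.7 CPM in the other 8. *Tars*, for threonine, had 71.9, 80.0, 72.5 and 79.6 CPM against 62.5 to 71.2 CPM. *Gars*, for glycine, had 124, 135, 119.3 and 124 CPM against 108 to 118.9 CPM. In *Yars*, *Tars* and *Gars* the lowest knockout was close to the highest other mouse, and DESeq2 called *Yars* of these 3. Of the 20 cytosolic synthetases on the list, 18 had a log2 fold change above 0, 4 lay above the range and 7 were higher at an unadjusted p under 0.05, against 48.1%, 0.29% and 3.23% of all genes tested. The median of the list was 0.12, against -0.01 over all genes tested, and 0 of the 20 passed adjustment. This list, like the others below, was chosen with earlier results of these data known, so its shares are descriptive. *Qars* and *Dars* had values of -0.01 each. *Mars2*, the mitochondrial methionyl enzyme, was also above the range (log2 fold change 0.19) and was not on the list.

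Proteins that assemble ribosomes gave the other large group. *Tsr1*, a maturation factor of the small subunit, had 58.4, 59.2, 50.9 and 52.0 CPM in the knockouts and 42.5 to 48.7 CPM in the other 8 mice, a log2 fold change of 0.24. *Rrp1b*, which takes part in processing of ribosomal RNA, had 32.1, 34.8, 26.0 and 25.5 CPM against 22.9 to 25.2 CPM. In *Rrp1b* 2 knockouts stood well apart and 2 lay next to the other mice. *Pwp2*, of the small-subunit processome, had 27.6 to 31.2 CPM in the knockouts against 23.5 to 27.2 CPM. *Ftsj3*, a methyltransferase of ribosomal RNA, had 75.6 to 90.7 CPM against 65.2 to 75.3 CPM. *Ddx54*, an RNA helicase of the nucleolus, had 97.9 to 100.4 CPM against 81.9 to 96.3 CPM. Of the 91 ribosome biogenesis genes, 90 had a log2 fold change above 0, 33 were higher at an unadjusted p under 0.05 and 0 were lower at that level, against 48.1%, 3.23% and 2.54% of all genes tested. The median was 0.12, the values ran from -0.01 to 0.30, and 5 genes lay above the range, as 0.29% of all genes did. Genes of one list vary together within a mouse, so these counts are not independent. The list was also chosen with earlier results of these data known, so the counts are no test of it. The list's score in each mouse, the median over its genes of log2 CPM minus the mean of the 8, was 0.03 to 0.20 in Jrt;Sost-ko, -0.11 to 0.05 in Jrt;Sost-het and -0.06 to 0.10 in WT mice. Whole groups therefore overlapped. The same score of the synthetase list was 0.0092 to 0.19, -0.04 to 0.0034 and -0.03 to 0.05. The ribosome score was highest in knockout mouse 4 (0.20), with a summed muscle CPM of 39.0. Among the other 8 it was highest in WT mouse 2 (0.10, muscle 273 CPM). Jrt;Sost-het mouse 1, with 2884 CPM, was at -0.06. Over 23 alternative fits, among them muscle genes as a covariate, the median of the ribosome list was 0.09 to 0.15. Beyond these fits, the part of muscle or of other cells in the ribosome score was not tested.

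**Figure D3:**
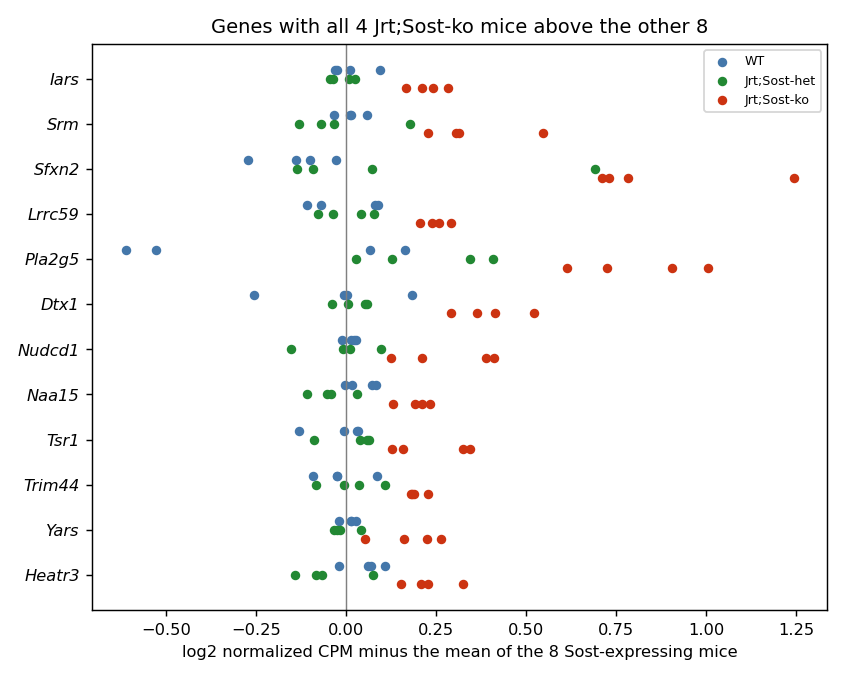
The 12 genes with the smallest unadjusted p among those with all 4 Jrt;Sost-ko mice above the other 8, shown as log2 normalized CPM minus the mean of the 8, with 1 point per mouse. In *Sfxn2* a Jrt;Sost-het mouse lies next to the knockouts, while in *Lrrc59* all 8 other mice lie near 0.

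Among the remaining genes above the range that the naming rule picked, *Sfxn2* and *Pla2g5* had the largest differences. *Sfxn2*, a sideroflexin of mitochondria (chromosome 19, 46573365 to 46598066), had 18.7, 13.1, 12.9 and 13.6 CPM in Jrt;Sost-ko mice, 7.17, 8.29, 7.40 and 12.7 CPM in Jrt;Sost-het mice and 7.15, 7.36, 6.53 and 7.74 CPM in WT mice. Jrt;Sost-het mouse 4 almost reached the knockouts, while the other 7 mice were at about the same low level. Its log2 fold change of 0.86 (SE 0.17) had an adjusted p of 0.657 in edgeR's quasi-likelihood test and of 0.00396 in DESeq2, and without that mouse it was 0.98 with an edgeR adjusted p of 0.012. *Pla2g5*, a secreted phospholipase A2 (chromosome 4, 138799244 to 138863482), had 25.4, 27.3, 22.4 and 20.8 CPM in the knockouts, 17.3, 18.04, 14.8 and 13.8 CPM in Jrt;Sost-het mice and 8.89, 9.42, 14.2 and 15.2 CPM in WT mice. Its 3 groups were in the order WT, Jrt;Sost-het, Jrt;Sost-ko by mean, with the first and second overlapping. By edgeR's quasi-likelihood test the log2 fold change was 0.78 (SE 0.17) with an adjusted p of 0.692, and DESeq2 gave an adjusted p of 0.028.

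*Srm*, the spermidine synthase of polyamine synthesis, had 48.6, 57.4, 46.1 and 48.9 CPM in the knockouts against 35.9 to 44.5 CPM in the other 8 mice (log2 fold change 0.35, SE 0.066). *Lrrc59*, a ribosome-binding protein of the endoplasmic reticulum membrane, had 156, 165, 161 and 159 CPM against 125 to 144 CPM (log2 fold change 0.25, SE 0.049). Both were clear of the other mice by more than 0.05 on the log2 scale, with gaps of 0.051 and 0.12. *Dtx1*, an E3 ligase of the Notch pathway, had 8.04, 7.20, 7.46 and 6.85 CPM against 4.69 to 6.35 CPM (log2 fold change 0.40). *Naa15*, the auxiliary subunit of an N-terminal acetyltransferase that works at the ribosome, had 116 to 124 CPM against 98.1 to 112 CPM. *Trim44*, of the tripartite motif family, had 102 to 105 CPM against 84.1 to 96.6 CPM. *Nudcd1*, with a NudC domain, had 19.9 to 24.2 CPM against 16.4 to 19.5 CPM, and *Heatr3*, which serves nuclear import of a ribosomal protein, had 33.1 to 37.2 CPM against 26.9 to 32.1 CPM. The adjusted p of these genes in edgeR's quasi-likelihood test lay between 0.657 and 0.692. DESeq2 called *Srm*, *Lrrc59*, *Dtx1*, *Naa15*, *Trim44* and *Nudcd1*, with adjusted p from 0.00396 to 0.0467.

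Osteocalcin was the bone gene above the range. *Bglap*, which encodes this matrix protein of mature osteoblasts (chromosome 3, 88383501 to 88384464), had 664, 761, 852 and 721 CPM in Jrt;Sost-ko mice. Jrt;Sost-het mice had 499, 626, 480 and 579 CPM, and WT mice had 327, 362, 494 and 628 CPM. The knockouts were higher than every other mouse, and WT mice spanned the widest range. With edgeR's quasi-likelihood test this was a log2 fold change of 0.59 (SE 0.16) at an adjusted p of 0.692. *Bglap2*, its near-identical neighbour, had 309, 335, 372 and 336 CPM against 162 to 301 CPM (log2 fold change 0.48). The split of reads between these 2 copies is uncertain, and they are not 2 separate observations. Other osteoblast genes overlapped between the groups. Of 16 osteoblast genes 14 had a log2 fold change above 0, with a median of 0.37, 5 were higher at an unadjusted p under 0.05 (among them *Bglap*, *Bglap2*, *Omd* and *Ifitm5*) and 0 passed adjustment. Over all genes tested 48.1% were above 0 and 3.23% were higher at that level. *Sp7*, the osteoblast transcription factor, had a log2 fold change of 0.35, *Alpl*, the alkaline phosphatase, 0.15, and *Ibsp*, bone sialoprotein, -0.06. The osteoblast score was -0.09 to 0.61 in Jrt;Sost-ko, -0.05 to 0.42 in Jrt;Sost-het and -0.62 to 0.54 in WT mice.

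Osteocyte genes other than *Sost* lay mostly higher but inside the range. *Mepe*, a matrix phosphoglycoprotein of osteocytes, had 156, 152, 101 and 80.8 CPM in the knockouts, 67.2 to 89.7 CPM in Jrt;Sost-het and 54.8 to 87.6 CPM in WT mice. Its lowest knockout fell among the others (log2 fold change 0.73, SE 0.17, adjusted p = 0.692 from edgeR's quasi-likelihood test). DESeq2 called *Mepe*. *Dmp1* had a log2 fold change of 0.62 and *Phex*, counted among the osteoblast genes, one of 0.37, and *Fgf23*, the phosphate-regulating hormone, was under 1 CPM in every mouse. Of the 12 osteocyte genes 8 were above 0, with a median of 0.39 and with *Sost* alone outside the range, and of the 14 osteoclast genes 2 were above 0, against 48.1% of all genes tested. For the osteoclast genes the median was -0.09 and 0 lay outside the range, with *Acp5* at 505 to 661 CPM in knockouts against 267 to 956 CPM in the others. Collagen processing genes had a median of 0.16, with 30 of 33 above 0, 3 higher and 1 lower at an unadjusted p under 0.05 and 0 outside the range, where all genes tested had 48.1% above 0, 3.23% higher and 2.54% lower. In mean log2 CPM the collagen processing median was 0.10 against Jrt;Sost-het mice alone and 0.37 against WT mice alone. *Col1a1* (log2 fold change 0.52) and *Col1a2* (0.51) overlapped widely. *Col1a1* had 16897 to 29945 CPM in knockouts, 13662 to 24899 CPM in Jrt;Sost-het and 8953 to 24216 CPM in WT mice, and counts per gene do not separate its Jrt and wild type transcripts. *Colgalt2*, which attaches galactose to collagen (log2 fold change -1.09), was lower in the knockouts (2.15 to 5.65 CPM) than in Jrt;Sost-het mice (7.84 to 11.6 CPM), but WT mice reached from 2.71 to 10.7 CPM.

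**Figure D4:**
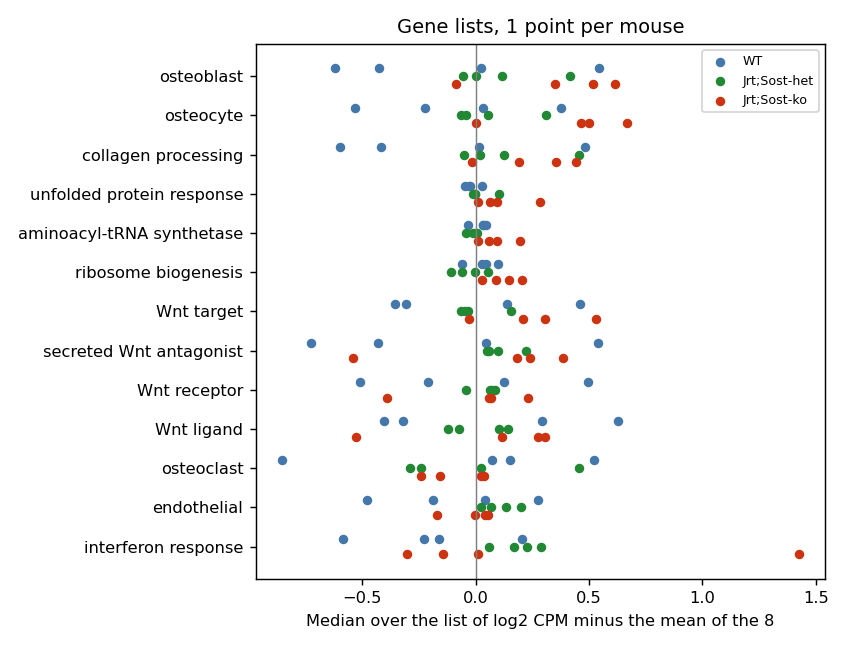
Median over the genes of each of 13 lists of log2 CPM minus the mean of the 8 Sost-expressing mice, with 1 point per mouse. The ranges of Jrt;Sost-ko and of the other mice overlap in every list plotted, and 1 knockout stands at 1.43 in the interferon response list.

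The Wnt pathway was examined by role. Of 20 Wnt target genes 18 had a log2 fold change above 0, the median was 0.24, and 7 were higher at an unadjusted p under 0.05, but none lay outside the range. The shares over all genes tested were 48.1% above 0 and 3.23% higher at that level, here and for the lists that follow. *Myc*, a growth-promoting transcription factor, had 63.8, 67.1, 42.5 and 50.4 CPM in the knockouts against 38.8 to 46.8 CPM in the others (log2 fold change 0.39). *Dkk1*, a target that is itself a secreted antagonist and also stands on the osteocyte list, had 24.3, 32.8, 25.1 and 24.2 CPM against 9.59 to 26.9 CPM (log2 fold change 0.71). In *Myc* 1 knockout and in *Dkk1* 3 knockouts lay within the range of the other mice. *Axin2* and *Lef1* had values of 0.19 and 0.25, and *Ccnd1* 0.01. The target score was -0.03 to 0.53 in Jrt;Sost-ko, -0.06 to 0.16 in Jrt;Sost-het and -0.36 to 0.46 in WT mice. Among the 12 secreted antagonists *Sost* was the only gene outside the range, 7 were above 0 and the median was 0.13. In mean log2 CPM the antagonist median was -0.07 against Jrt;Sost-het mice alone and 0.29 against WT mice alone. Receptors (8 of 16 above 0, median -0.01) and ligands (8 of 14, median 0.07) had 0 genes outside the range. Of 25 unfolded protein response genes 22 were above 0, with a median of 0.13, 6 higher at an unadjusted p under 0.05 and 0 outside the range, against the same 48.1% and 3.23%.

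On the low side, *Cd300lg* came next to *Sost* by p. It encodes an immunoglobulin-type receptor of endothelium and lies on chromosome 11 from 102041509 to 102055620, 74.5 kb from *Sost*. Its levels were 18.4, 18.1, 16.2 and 18.8 CPM in Jrt;Sost-ko mice, 19.9, 24.5, 26.3 and 25.2 CPM in Jrt;Sost-het mice and 22.2, 22.2, 26.5 and 23.0 CPM in WT mice. The knockouts lay close together and below every other mouse (log2 fold change -0.41, SE 0.082, adjusted p = 0.657 from edgeR's quasi-likelihood test, 0.00673 from DESeq2). Summed CPM of 15 endothelial genes was 797 to 889 in Jrt;Sost-ko, 887 to 929 in Jrt;Sost-het and 730 to 929 in WT mice, with 4 of 15 genes above 0 (48.1% of all genes tested) and a median of -0.03, and its part in the result was not tested. *Ezh1*, a histone methyltransferase 736 kb from *Sost*, was below the range as well (log2 fold change -0.15). Within 1 Mb of *Sost*, which is itself left out, 2 of 71 genes tested lay outside the range (2.82%), against 86 of 17113 elsewhere (0.503%). Within 5 Mb it was 3 of 215 (1.395%) against 0.501% elsewhere, within 10 Mb 5 of 316 (1.58%, 3 above and 2 below) against 0.492%, and within 20 Mb the same count of 5 among 631 (0.792%) against 0.501%. The 3 above the range were *Ftsj3*, *Abi3* and *Lrrc59*, at 4.28, 6.12 and 7.32 Mb from *Sost*. *Lrrc59* (94629767 to 94645216) also lies near *Col1a1* (94936224 to 94953042), the gene with the Jrt allele. Knockout mice are homozygous for the stretch of chromosome that carries the *Sost*- allele, so loss of *Sost* and the alleles linked to it cannot be told apart here. How far that stretch reaches was not examined.

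**Figure D5:**
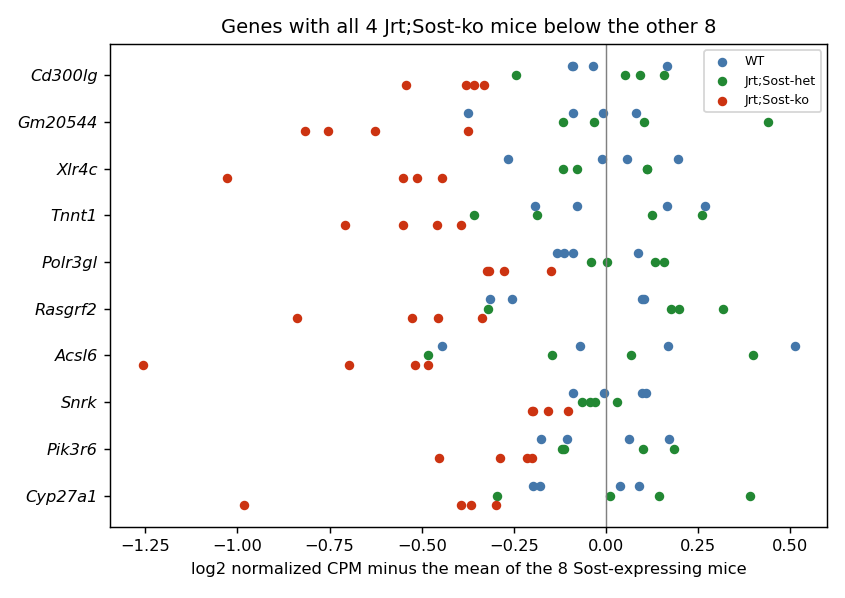
Shown are 10 of the 11 genes after *Sost* with the smallest unadjusted p and a mean of at least 1 CPM among those with all 4 Jrt;Sost-ko mice below the other 8, as log2 normalized CPM minus the mean of the 8, with 1 point per mouse. In *Cd300lg* and *Xlr4c* the knockouts are clear of the rest, and in *Cyp27a1* and *Acsl6* they almost touch.

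Other genes below the range had roles in muscle, signalling and lipid metabolism. *Tnnt1*, the troponin T of slow muscle fibres, had 5.77, 4.84, 5.41 and 6.03 CPM in the knockouts against 6.18 to 9.54 CPM (log2 fold change -0.54). All 18 skeletal muscle genes had a log2 fold change under 0, with a median of -0.96, where 48.1% of all genes tested were above 0, and 0 of the 18 lay outside the range. Their summed CPM, from 39.0 to 14660 in Jrt;Sost-ko, from 2884 to 33850 in Jrt;Sost-het and from 273 to 36140 in WT mice, overlapped between the groups. Over 23 alternative fits, among them muscle genes as a covariate, *Tnnt1* had a log2 fold change of -0.59 to -0.46. Beyond these fits, the part of muscle in the *Tnnt1* result was not tested. Of the signalling genes, *Rasgrf2*, which activates Ras, had 4.34, 3.50, 4.96 and 4.56 CPM against 5.01 to 7.80 CPM. *Pik3r6*, a regulatory subunit of PI3 kinase gamma, had 19.3, 21.6, 23.0 and 22.8 CPM against 23.4 to 29.98 CPM, and *Snrk*, a SNF1-related kinase, had 70.4 to 75.4 CPM against 76.0 to 87.2 CPM. The difference was small in *Snrk* (log2 fold change -0.17) and larger in *Rasgrf2* and *Pik3r6* (-0.55 and -0.29). *Acsl6*, a long-chain acyl-CoA synthetase, had 5.73, 3.44, 5.06 and 5.87 CPM against 5.88 to 11.7 CPM. *Cyp27a1* had 14.7, 9.59, 15.4 and 14.4 CPM against 15.4 to 24.9 CPM. *Polr3gl*, a subunit of RNA polymerase III, had 21.6 to 24.3 CPM against 24.6 to 30.1 CPM. *Xlr4c*, an X-linked gene of low level, had 0.996, 0.927, 0.666 and 0.951 CPM against 1.13 to 1.55 CPM, and the transcript *Gm20544* had 1.97 to 2.669 CPM against 2.671 to 4.70 CPM. Adjusted p of these genes in edgeR's quasi-likelihood test lay between 0.692 and 0.706.

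The naming rule left 29 of the genes above and 27 of those below without values per mouse. Those above had log2 fold changes from 0.09 to 1.35, of which 24 were under 0.5. Among them were regulators of transcription and chromatin (*Zfp553*, *Zfp451*, *Zfp958*, *Zfp940*, *Nkrf*, *Creb3l3*, *Men1*, *Mta1*), genes of protein turnover and cleavage (*Uba6*, *Ankib1*, *Tpp2*, *Sppl2a*, *H13*), *Sav1* of the Hippo pathway, *G3bp1* of stress granules and *Tyw5*, which modifies tRNA. Membrane transport, receptors and lipid metabolism were represented by *Slco4a1*, *Mfsd2a*, *Drd4*, *Gpr50*, *Lilra5*, *Snx2*, *Hacd3* and *Pafah1b2*, and the others were *Mars2*, *Abi3*, *Gimap1*, *Cdk2ap1* and *Ahcyl1*. *Drd4*, *Mfsd2a* and *Gpr50* averaged under 1 CPM, and *Drd4* and *Mfsd2a* were the 2 with values over 1 (1.24 and 1.35). Those below had log2 fold changes between -1.48 and -0.07. They held the chromatin and DNA methylation genes *Ezh1* and *Dnmt3l*, the DNA repair gene *Fance*, the chaperone *Clu*, which is secreted, and the dynactin subunit *Dctn1*. Further protein-coding genes included *Accsl*, *Fsd1l*, *Ccdc9*, *Hlcs*, *Ube3b*, *Snx16*, *Plekhg3*, *Rmdn1*, *Zfp943*, *Myeov2*, *Rnf13*, *Ccpg1*, *Matk*, *Wwox* and *Myo1a*. Not protein coding were *Btnl7-ps* (-1.48), *A830012C17Rik*, *Rpl35a-ps2*, *4933406P04Rik*, *Gm12191* and *Gm15729*. Of these 27 genes 7 averaged under 1 CPM.

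*Tex15*, a germ cell gene of meiosis, had 14.8, 16.0, 14.2 and 14.8 CPM in the knockouts, and WT mouse 4 with 15.9 CPM fell among them (log2 fold change -0.49, adjusted p = 0.692 from edgeR's quasi-likelihood test, 0.0219 from DESeq2). The remaining 7 mice had at least 19.5 CPM. *Pla1a*, a phospholipase of phosphatidylserine, had 4.16 to 7.43 CPM in the knockouts, 8.26 to 18.6 CPM in Jrt;Sost-het mice and 4.49 to 12.5 CPM in WT mice (log2 fold change -0.93). In both genes the knockouts were below all Jrt;Sost-het mice but not below all WT mice.

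Markers of other cells gave no list in which the knockouts lay outside the range. Blood cell lists had medians near 0, with 10 of 12 erythroid genes above 0 (median 0.03), 2 of 15 neutrophil genes (-0.08), 13 of 14 B cell genes (0.07) and 7 of 10 macrophage genes (0.07). Adipocyte genes (8 of 12, 0.03) and genes of dividing cells (16 of 23, 0.01) were alike in this. Chondrocyte genes had a median of -1.54 with 1 of 14 above 0, and their summed CPM was 1363 to 2256 in Jrt;Sost-ko, 1142 to 5615 in Jrt;Sost-het and 706 to 4687 in WT mice. The 8 of 20 epidermis genes that were tested had a median of -1.91, which was -0.03 without WT mice 3 and 4. All 20 interferon response genes were above 0, with a median of 0.41. Without knockout mouse 1, whose summed CPM was 1959, the median was -0.16. With all mice, in mean log2 CPM, it was 0.08 against Jrt;Sost-het mice alone and 0.43 against WT mice alone. Defining markers of bone were present in every mouse, with *Bglap* at 327 CPM or more and *Dmp1* at 111.5 CPM or more, and so were marrow cell markers, with *Hbb-bs* at 7614 CPM or more.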

How the data were processed

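RNA from tibia shafts of 12 male mice (n = 4 per group, 1 library per mouse) had been sequenced as poly(A)-selected paired-end libraries. The authors aligned the reads to GRCm38 with STAR and deposited raw counts per Ensembl gene, which were the only values used. The submitters' processing notes also name bcl2fastq 2.20, Cufflinks, Cuffdiff and DESeq. The counting tool, its strand setting and the annotation release are not given in the sources used here. The count files of single mice equal the matrix and were not used separately. The authors' comparison tables, which hold fold changes, p-values and normalized counts, were not used.

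Counts were fitted in R 4.3.3 with edgeR 4.0.16 (filterByExpr with default settings, TMM, glmQLFit, glmQLFTest), with Jrt;Sost-ko against the other 8 mice and no covariate. A gene was called at a Benjamini–Hochberg adjusted p under 0.05 over all genes tested. For log2 CPM the prior count was 2. A gene was outside the range if all 4 knockouts were strictly above, or strictly below, all 8 other mice on TMM-normalized CPM. *Sost* alone was also tested by an exact permutation test. P-values measure the spread between mice. Samples were grouped by the genotype in the labels and numbered in accession order, so numbers pair no mice. Counts of the 18 within-group pairs of libraries gave a chi-square per degree of freedom from 25.1 to 249, so no 2 libraries were alike within counting error. GENCODE M21 gave positions for 98.9% of identifiers, and RefSeq the promoters.

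Named genes were those the paper names in these RNA data, genes with an adjusted p under 0.05, the 12 higher and 12 lower genes outside the range with the smallest unadjusted p and a mean of at least 1 CPM, list members outside the range (at most 6 a list), the genes just inside and outside it, and marker genes. *Dkk1*, *Myc* and other list members inside the range, *Ezh1*, *Mars2*, *Drd4*, *Mfsd2a*, *Tmem180* and *Irg1* were picked after their values were seen. Members and the 22 gene lists were chosen with earlier results of these data known. Alternatives were DESeq2 1.42.0 (its size factors and its test), upper-quartile scaling, scaling without muscle, blood and epidermis genes, other filters, limma-voom of limma 3.58.1, a fit of 3 groups, 1 surrogate variable from sva 3.50.0, muscle genes as a covariate, and leaving out mice. The functions were tested on simulated counts. Bone imaging, mechanics, histology and serum values were not analysed here. Values of 4 genes are not reported here.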

Additional observations from a re-analysis of the deposited data

Results flagged for a closer look

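Within groups of 4 mice, 186 sets of values (the named genes and the list scores) were examined for a mouse that stands far from the other 3, and 5 had one, where chance gives about 1 in 20. *Sost* in Jrt;Sost-het mouse 3 was 70.3 CPM against 27.2 to 34.5 CPM in the other 3, a gap of 0.83 of the group's range. *Sfxn2* in Jrt;Sost-ko mouse 1 was 18.7 CPM against 12.9 to 13.6 CPM, a gap of 0.883. *Ftsj3* in WT mouse 4 was 71.0 CPM against 74.6 to 75.3 CPM, a gap of 0.836. The Wnt target score of Jrt;Sost-het mouse 1 was 0.16 against -0.06 to -0.04, a gap of 0.869. The unfolded protein response score of Jrt;Sost-het mouse 3 was 0.10 against -0.01 to -0.0022, a gap of 0.928. Fewer sets were flagged than chance gives. The flags of *Sost* and of the unfolded protein response score fell on the same mouse, Jrt;Sost-het mouse 3, and no cause was tested for any of these values.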

How the results depend on the processing

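*Sost* kept its direction under all 23 alternatives (log2 fold change -6.62 to -5.87) and its call under 22. With limma-voom and quality weights it was -6.00 with an adjusted p of 0.146. The number of genes called was 1, except for 16 with DESeq2 (13 higher and 3 lower), 0 with limma-voom and 2 when Jrt;Sost-het mouse 2 or mouse 4 was left out (range 1 to 2 over mice left out), where *Gm37261* or *Sfxn2* joined *Sost*. The comparison of Jrt;Sost-het with WT mice gave 0 calls under every alternative run. Without WT mice 3 and 4, which held epidermis transcripts, 125 genes lay above and 82 below the range, and 82 of the 89 were among them. Leaving out 1 mouse gave 61 to 225 genes above and 45 to 153 below, with fewer mice to clear. Jrt;Sost-ko mouse 4 (225 and 147) and mouse 3 (187 and 153) moved these counts most, followed by knockout mouse 1 (106 and 88), WT mouse 2 (90 and 68), Jrt;Sost-het mouse 1 (90 and 68) and knockout mouse 2 (83 and 71). Without a filter on low counts there were 68 and 47. The epidermis median of -1.91 was -4.30 without a filter, -1.50 with at least 10 counts in every mouse, -1.10 with DESeq2, -0.97 with limma-voom, -1.45 with 3 groups fitted, -0.63 with 1 surrogate variable, -0.91 with muscle genes as a covariate, -0.034 without WT mice 3 and 4, and -2.83 to -0.73 with 1 mouse left out. No paired analysis was possible because the labels give the groups no shared replicate numbers. Depth limits the genes that average under 1 CPM most, such as *Drd4*, *Mfsd2a* and *Btnl7-ps*.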

Other observations

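DESeq2 called *Tmem180* and *Irg1*, which were neither outside the range nor named by the rule. *Tmem180*, which encodes a transmembrane protein, had 21.2, 16.5, 13.4 and 15.1 CPM in Jrt;Sost-ko mice, 9.10, 10.02, 9.58 and 13.7 CPM in Jrt;Sost-het mice and 11.02, 10.4, 10.5 and 9.63 CPM in WT mice (edgeR log2 fold change 0.65, SE 0.13). It lies on chromosome 19 from 46341121 to 46375252, upstream of *Sfxn2*. As in *Sfxn2*, knockout mouse 1 was the highest of the 12 and Jrt;Sost-het mouse 4 was the highest of the 8 Sost-expressing mice.

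*Irg1*, which makes itaconate in activated macrophages, had 6.69, 6.96, 1.36 and 1.48 CPM in Jrt;Sost-ko mice, 0.607, 0.508, 1.32 and 1.47 CPM in Jrt;Sost-het mice and 0.792, 0.445, 0.225 and 0.194 CPM in WT mice (edgeR log2 fold change 2.59, SE 0.56). Knockout mice 1 and 2 stood apart, and the other 2 were at the level of the highest Jrt;Sost-het mice. The macrophage list as a whole had a median of 0.07.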
